A study of Mus musculus with 12 samples.

Results

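The genes described here are 10 genes of the major histocompatibility complex (MHC) class I system, chosen by name: 8 heavy chain genes (H2-K1, H2-D1, H2-Q4, H2-Q6, H2-Q7, H2-T22, H2-T23 and H2-M3), the light chain gene B2m, and Nlrc5, a transcription regulator of the others. They were 10 of the 52962 genes in the deposited table, and all 10 were among the 15598 genes expressed highly enough to be tested. RNA was sequenced from β-cells and from non-β-cells of islets of NOD mice, the non-obese diabetic strain in which autoimmune diabetes arises spontaneously, at 4 and 8 weeks of age, with 3 samples in each of 4 groups. The study gives the animals as female NOD/ShiLtJ mice, pooled for each sample, and the cells as negative for the leukocyte antigen CD45 and separated by autofluorescence after overnight islet culture. All mice were NOD, so the comparisons are between ages and between cell fractions within a diabetes-prone strain, with no resistant strain beside them.

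MHC class I molecules carry short peptides from inside the cell to its surface, where CD8+ T cells read them. A heavy chain holds the peptide and reaches the surface only when paired with β2-microglobulin, the product of B2m. Transcription of these genes is raised by interferons through interferon regulatory factors, by NF-κB, and by NLRC5, which binds their promoters together with RFX, CREB and NF-Y factors, and a rise of class I on islet cells is a long-known feature of autoimmune diabetes in humans and in this strain.

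All 8 heavy chain genes lie in the H2 complex on chromosome 17, spread over 3.28 Mb between positions 33996017 and 37274484 of GRCm38, whereas B2m lies on chromosome 2 (122147686 to 122153083, plus strand) and Nlrc5 on chromosome 8 (94434356 to 94527272, plus strand). The reference genome is that of C57BL/6, and NOD mice carry a different H2 haplotype. Its K allele is Kd, and its D allele is Db as in the reference. The B2m allele of NOD also differs from that of the reference. Reads from H2-K1 in particular were therefore matched to a sequence of another allele. Heavy chain transcripts also resemble each other. Of the distinct stretches of 31 bases in the annotated transcripts of H2-T22, 51% also occur in transcripts of other genes, 47.2% in H2-T10 alone. The corresponding share was 50.3% for H2-Q6, 39.1% for H2-Q7, 38.4% for H2-Q4, 26.7% for H2-D1, 24.5% for H2-T23, 22.8% for H2-K1 and 4.62% for H2-M3, and it was 0.0% for B2m and for Nlrc5. The values of single H2-Q and H2-T genes are therefore uncertain as to which copy the reads came from, and sums over related genes are given beside them.

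The sequences through which these genes are known to be regulated are shown first. RefSeq promoter windows of GRCm38.p6 were at hand for 9 of the 10 genes. Printed below, 5′ to 3′ on the gene's strand, are the 250 bases before the annotated start of H2-K1, a classical heavy chain, of H2-Q7, the member with the largest differences, of H2-T23 and H2-M3, whose age differences in β-cells were not called, and of B2m. Capitals mark matches on either strand to the interferon response motif (GAAANNGAAA, or its shorter form GAANNGAAA), to the CCAAT box read as ATTGG, and to the NF-κB core GGGATTCC.
H2-K1, chr17:34000348-34000597, minus strand: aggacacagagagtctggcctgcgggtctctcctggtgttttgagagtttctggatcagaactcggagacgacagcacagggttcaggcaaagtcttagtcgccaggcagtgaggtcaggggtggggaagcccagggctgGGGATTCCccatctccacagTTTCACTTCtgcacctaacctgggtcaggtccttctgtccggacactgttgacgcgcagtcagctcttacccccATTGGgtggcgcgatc
H2-Q7, chr17:35438905-35439154, plus strand: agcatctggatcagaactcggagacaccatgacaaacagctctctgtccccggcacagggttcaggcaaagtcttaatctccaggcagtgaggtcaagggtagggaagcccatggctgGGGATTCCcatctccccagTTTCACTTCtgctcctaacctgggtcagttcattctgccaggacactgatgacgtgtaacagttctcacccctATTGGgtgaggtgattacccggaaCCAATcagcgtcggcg
H2-T23, chr17:36032702-36032951, minus strand: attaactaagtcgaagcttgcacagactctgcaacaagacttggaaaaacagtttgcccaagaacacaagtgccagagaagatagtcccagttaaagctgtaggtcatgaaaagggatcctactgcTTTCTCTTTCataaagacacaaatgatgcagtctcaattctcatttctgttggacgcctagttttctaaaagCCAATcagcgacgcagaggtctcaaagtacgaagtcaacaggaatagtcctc
H2-M3, chr17:37269984-37270233, plus strand: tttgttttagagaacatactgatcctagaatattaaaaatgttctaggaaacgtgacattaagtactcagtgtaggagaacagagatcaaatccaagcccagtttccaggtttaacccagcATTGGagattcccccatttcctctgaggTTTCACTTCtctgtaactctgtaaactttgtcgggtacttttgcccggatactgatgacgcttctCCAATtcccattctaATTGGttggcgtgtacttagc
B2m, chr2:122147437-122147686, plus strand: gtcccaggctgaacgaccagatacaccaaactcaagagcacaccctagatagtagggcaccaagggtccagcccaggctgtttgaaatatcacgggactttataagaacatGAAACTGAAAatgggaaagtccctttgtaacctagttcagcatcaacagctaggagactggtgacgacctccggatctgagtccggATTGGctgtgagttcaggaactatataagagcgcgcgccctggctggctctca

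In H2-K1 the NF-κB core began 110 bases before the start, the interferon response motif 90 bases before it and a CCAAT box 16 bases before it, and in H2-Q7 the same order was found at 132, 113 and 40 bases. The windows searched were 300 bases long, from 250 bases before the start through the 50 bases that follow. A match to either form of the interferon response motif was present in 9 of 9 members, against 10.4% of the 32544 promoter windows of the genome, and the ATTGG letters in 9 of 9, against 37.4%. The long form was found in 3 members (H2-T22, H2-T23 and B2m; 3.45% of all windows) and the short form in the other 6 (7.57% of all windows), but the short form was added to the search after the members' windows had been read. The NF-κB core GGGATTCC was present in 4 of 9 (H2-K1, H2-D1, H2-Q6 and H2-Q7; 1.07% of all windows), and TGACG, the core of the cAMP response element bound by CREB, in 7 of 9 (20.9%), with no match in H2-Q6 or H2-T23. H2-M3 had the short interferon motif 101 bases before its start. The windows are those of the reference genome and not of NOD, related H2 genes share descent and so are not independent, and a match of letters is not a bound site.

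**Figure D1:**
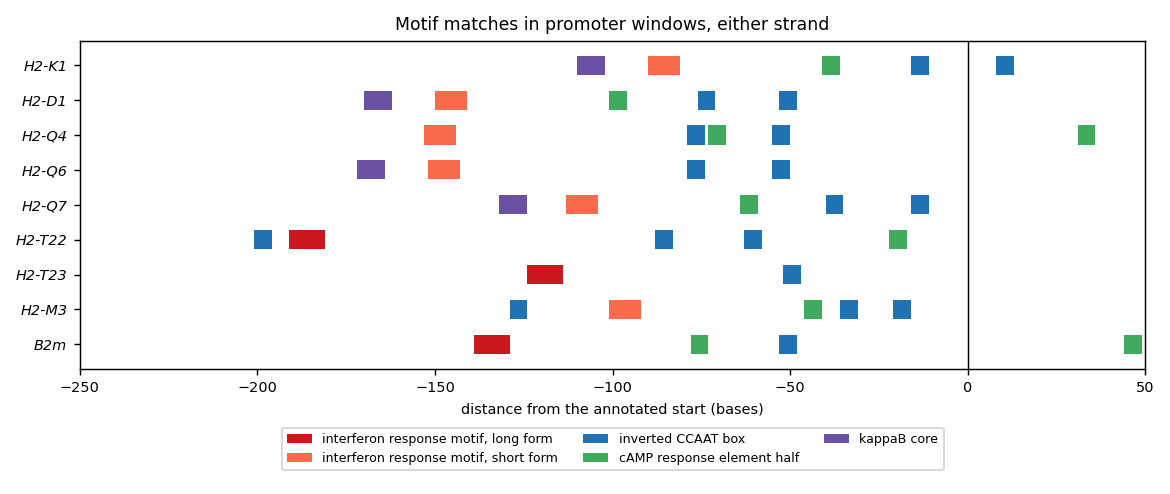
Matches to the 5 motif forms in the promoter windows of 9 members, by distance in bases from the annotated start (0), on either strand. H2-K1, H2-D1, H2-Q6 and H2-Q7 have an NF-κB core followed by an interferon response motif and CCAAT boxes. All 9 windows hold an interferon response motif, in its long or short form, upstream of a CCAAT box. The short form, matched in 6 of the 9, was added to the search after these windows had been read.

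Transcript levels are given in counts-per-million (CPM) units, the share of a library's reads assigned to a gene with library totals scaled by TMM (trimmed mean of M-values). Libraries held 13755106 to 27040652 estimated counts. Differences are on the log2 scale with their standard error (SE), and adjusted p-values are those of limma-voom over all 15598 genes, with 0.05 as the threshold. The β-cell samples carried the β-cell markers and the non-β samples the α-cell markers: all 6 β-cell genes listed were higher and all 5 α-cell genes lower in the β-cell fraction at both ages. Hormone transcripts of other islet cells were still present in the β-cell fraction, and their levels changed with age. Means at 4 and 8 weeks were 6904 and 1989 CPM for Gcg and 227 and 63.6 CPM for Ppy. Sst went the other way, with 494 and 806 CPM. The leukocyte markers stayed near 0, the 19 genes summing to between 1.08 and 6.98 CPM per sample. Ptprc, the gene of CD45, reached at most 0.789 CPM in any sample. In a sorted population, fewer cells of a type and less RNA per cell cannot be told apart.

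Per kilobase of exon, H2-D1 was the most abundant member in β-cells at both ages and in non-β-cells at 4 weeks. H2-D1 made up 64.6% ± 0.808 (SD, n = 3) of the summed transcripts of the 8 member heavy chains in β-cells at 4 weeks, and H2-K1 made up 13.8% ± 0.333. H2-Q2 and H2-K2, at 105 and 54.7 CPM in the same cells, are not members and are outside that sum. H2-D1 exceeded H2-K1 per kilobase 4.69 ± 0.139 times in those cells, and the ranges did not overlap. NOD carries the reference allele of H2-D1 but not that of H2-K1, so these levels are not strictly comparable. The scaling used exon unions of 2938 bases for H2-K1 and 2579 for H2-D1, whose longest transcripts have 1874 and 2102 bases. H2-K1 and H2-Q4, next to each other in the order, differed 1.15-fold and their ranges overlapped. H2-T22, H2-T23 and H2-M3 together accounted for 4.22% ± 0.354 of the member heavy chain total there. Nlrc5 was the least abundant member in every group, but its range overlapped that of H2-T22 in older β-cells and in younger non-β-cells. In non-β-cells at 8 weeks B2m stood above H2-D1, 1.15-fold with overlapping ranges. By group, the mean of every one of the 10 genes was highest in non-β-cells at 8 weeks.

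**Figure D2:**
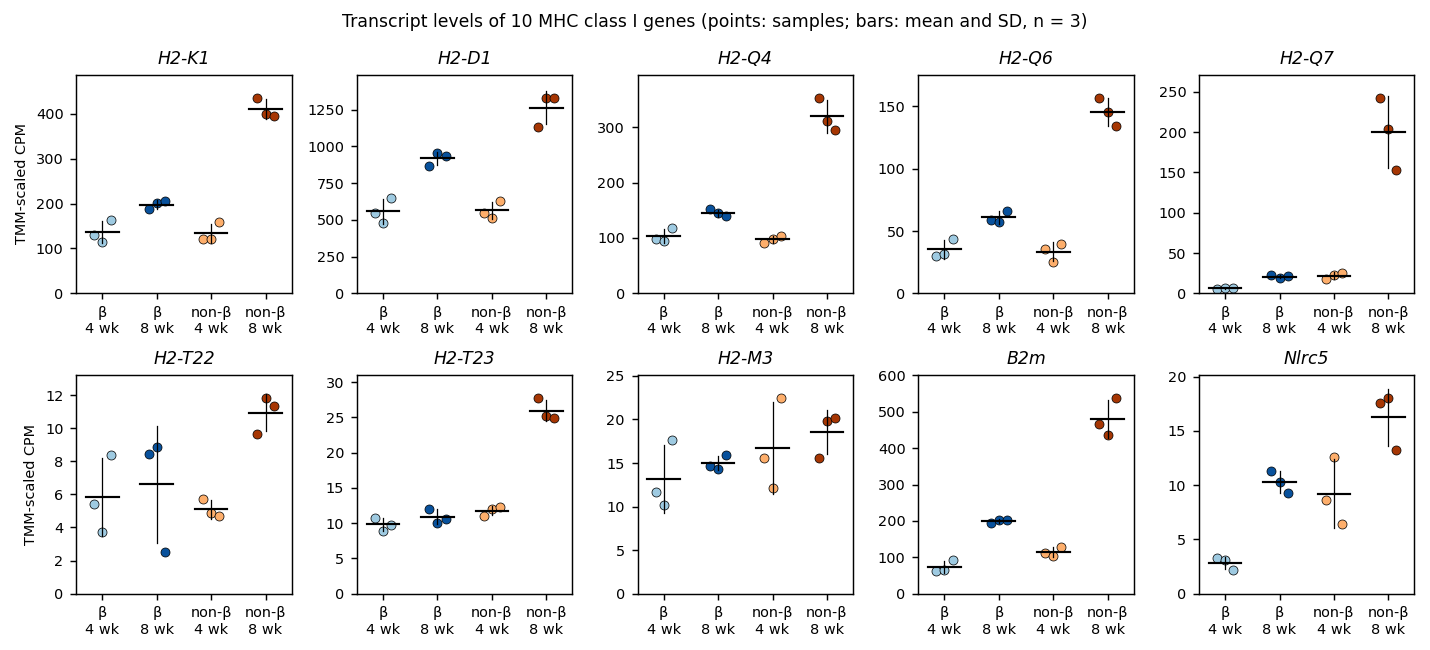
Level of each of the 10 genes in TMM-scaled CPM (y axes start at 0 and differ between genes) in the 4 groups. Each point is a sample, the horizontal bar the mean and the vertical bar the SD of 3 samples. Non-β-cells at 8 weeks have the highest mean in all 10 panels, and H2-M3 and H2-T22 show the most overlap between groups.

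In β-cells, 7 of the 10 genes rose between 4 and 8 weeks (H2-K1, H2-D1, H2-Q4, H2-Q6, H2-Q7, B2m and Nlrc5), none fell, and H2-T22, H2-T23 and H2-M3 did not pass the test. Over all genes tested, 8.59% were called higher in this comparison, and in 20.7% every older sample was above every younger one. The median log2 difference of the 10 genes was 0.64, beside 0.02 over all genes.

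B2m measured 63.6, 64.2 and 92.6 CPM in the 3 β-cell samples at 4 weeks and 195, 204 and 202 CPM at 8 weeks. The 8-week samples were all above the 4-week samples, and replicate 3 was the highest of the younger group. The rise was 2.77-fold (log2 difference 1.47, SE 0.144, adjusted p = 2.48e-05 by limma-voom). With single libraries left out, the log2 difference stayed between 1.36 and 1.65 and was called each time.

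Nlrc5, which encodes the class I transactivator, measured 3.26, 3.09 and 2.20 CPM at 4 weeks and 11.3, 10.3 and 9.27 CPM at 8 weeks. The older samples were well separated from the younger ones. The rise of 3.62-fold (log2 difference 1.86, SE 0.323, adjusted p = 0.00177) was close in size to that of H2-Q7, the largest rise among the member heavy chains in these cells.

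The classical heavy chains changed less. H2-D1, which presents peptides to CD8+ T cells, measured 547, 480 and 649 CPM at 4 weeks and 867, 951 and 934 CPM at 8 weeks. Every older sample was above every younger one, and the rise was 1.65-fold (log2 difference 0.73, SE 0.124, adjusted p = 0.00159). H2-K1, the other classical heavy chain, measured 131, 114 and 163 CPM in the younger and 187, 201 and 205 CPM in the older samples. Its rise of 1.47-fold (log2 difference 0.55, SE 0.138, adjusted p = 0.0152) no longer passed the threshold when replicate 1 or 2 of the 4-week β-cells or replicate 2 or 3 of the 8-week β-cells was left out (adjusted p = 0.0665, 0.0908, 0.0554 and 0.0700).

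The H2-Q genes encode heavy chains of the Qa series, which vary less between individuals than the classical chains. In β-cells H2-Q7 went from 5.45, 6.14 and 6.70 CPM to 22.3, 19.1 and 21.3 CPM, a 3.40-fold rise (log2 difference 1.77, SE 0.265, adjusted p = 0.000644). H2-Q6 went from 30.2, 31.9 and 43.7 CPM to 59.25, 57.1 and 66.5 CPM, a 1.75-fold rise (log2 difference 0.81, SE 0.169, adjusted p = 0.00581). H2-Q4 went from 98.7, 94.4 and 119 CPM to 152, 144 and 139 CPM, a 1.40-fold rise (log2 difference 0.49, SE 0.110, adjusted p = 0.00907), which fell short of the threshold without replicate 1 or replicate 2 of the 4-week β-cells (adjusted p = 0.0502 and 0.0576). In all of these genes the older samples were above the younger ones without overlap, as in 20.7% of all genes tested. With the counts of the 8 H2-Q genes of the table summed, which removes any misassignment among them, the level rose from 257 ± 33.4 to 358 ± 10.2 CPM (log2 difference 0.48, SE 0.116, adjusted p = 0.0125).

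The 3 remaining heavy chains belong to the nonclassical T and M regions. H2-T23 encodes Qa-1, a ligand of an inhibitory receptor of natural killer cells, and its β-cell values were 10.8, 8.92 and 9.77 CPM in younger and 12.1, 10.02 and 10.6 CPM in older mice. The ages overlapped, with a log2 difference of 0.15 (95% confidence interval -0.17 to 0.47, adjusted p = 0.526). H2-M3, which presents peptides with a formylated end, had a log2 difference of 0.24 (interval -0.27 to 0.75, adjusted p = 0.534), and it was called when samples were weighted by quality (0.40, adjusted p = 0.0398). H2-T22, a ligand of some γδ T cells, ranged from 2.53 to 8.86 CPM at 8 weeks, and the interval of its log2 difference of 0.06, -0.86 to 0.99 (adjusted p = 0.938), was the widest of the members in β-cells.

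In non-β-cells, 8 of the 10 genes rose between 4 and 8 weeks, the 7 of β-cells and H2-T23, and again none fell. Here 11.6% of all genes tested were called higher. The median log2 difference of the 10 genes was 1.40, beside 0.01 over all genes.

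H2-Q7 showed the largest change of any member, from 17.9, 22.4 and 25.7 CPM to 242, 204 and 153 CPM, a 9.10-fold rise (log2 difference 3.19, SE 0.176, adjusted p = 2.35e-07). The older samples were far above the younger ones but also spread widely among themselves. H2-Q6 rose 4.42-fold (log2 difference 2.14, SE 0.167, adjusted p = 2.96e-06) and H2-Q4 3.27-fold (1.71, SE 0.111, adjusted p = 6.70e-07). The sum of the 8 H2-Q genes rose from 271 ± 14.9 to 897 ± 115 CPM (log2 difference 1.72, SE 0.116, adjusted p = 1.04e-06).

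B2m rose from 111, 104 and 129 CPM to 467, 436 and 537 CPM, 4.19-fold (log2 difference 2.07, SE 0.142, adjusted p = 1.11e-06). H2-K1 rose from 121, 120 and 159 CPM to 435, 400 and 395 CPM, 3.10-fold (1.63, SE 0.138, adjusted p = 5.23e-06). H2-D1 rose from 546, 515 and 630 CPM to 1132, 1325 and 1329 CPM, 2.24-fold (1.16, SE 0.124, adjusted p = 3.18e-05). In each of these 3 genes the older samples were above the younger ones without overlap, as in 19% of all genes tested.

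H2-T23 rose from 11.0, 12.0 and 12.2 CPM to 27.7, 25.3 and 24.9 CPM, 2.23-fold (log2 difference 1.15, SE 0.130, adjusted p = 5.14e-05). H2-T22 measured 5.74, 4.84 and 4.68 CPM at 4 weeks and 9.65, 11.8 and 11.4 CPM at 8 weeks. Those values did not overlap, yet the log2 difference of 1.07 (SE 0.409) did not pass the threshold (adjusted p = 0.0985). The sum of H2-T22 and its near copy H2-T10 did (log2 difference 1.13, SE 0.189, adjusted p = 0.00103). H2-T10 was the larger part of that sum, with means of 13.8 and 30.3 CPM against 5.09 and 10.9 CPM for H2-T22. H2-T22 itself passed with DESeq2 (adjusted p = 0.0466), with the ages fitted alone (0.0144) and without replicate 3 of the 8-week β-cells (0.0161). H2-M3 overlapped between the ages, with a log2 difference of 0.17 (interval -0.32 to 0.67, adjusted p = 0.686).

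Nlrc5 rose least of the called members in non-β-cells, from 8.64, 12.6 and 6.41 CPM to 17.6, 18 and 13.3 CPM, 1.81-fold (log2 difference 0.85, SE 0.219, adjusted p = 0.0165). The lowest older sample lay close to the highest younger one. The call was lost when replicate 1 or 3 of the 4-week or replicate 1 or 2 of the 8-week non-β-cells was left out (adjusted p = 0.0680, 0.0555, 0.0746 and 0.0504) and when the 2 groups were fitted alone (0.0639).

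Markers of other cell types moved with age in the non-β fraction. All 8 endothelial genes listed rose there, from a summed 54.7 to 94.5 CPM at 4 weeks to 402 to 1081 CPM at 8 weeks, and all 7 mesenchymal genes, from 104 to 301 CPM to 677 to 1056 CPM. Acinar and duct genes summed to 39.7 to 83.6 CPM and to 186 to 566 CPM. In β-cells none of the 8 endothelial genes passed the test (7.53 to 16.9 CPM at 4 weeks, 14.5 to 18.1 CPM at 8 weeks) and 1 of 7 mesenchymal genes did (4.28 to 15.05, then 25.7 to 53.0 CPM), while acinar and duct genes summed to 72.1 to 141 CPM and then 336 to 682 CPM, and all 5 α-cell genes fell. The part of these cells in the class I results was not tested.

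**Figure D3:**
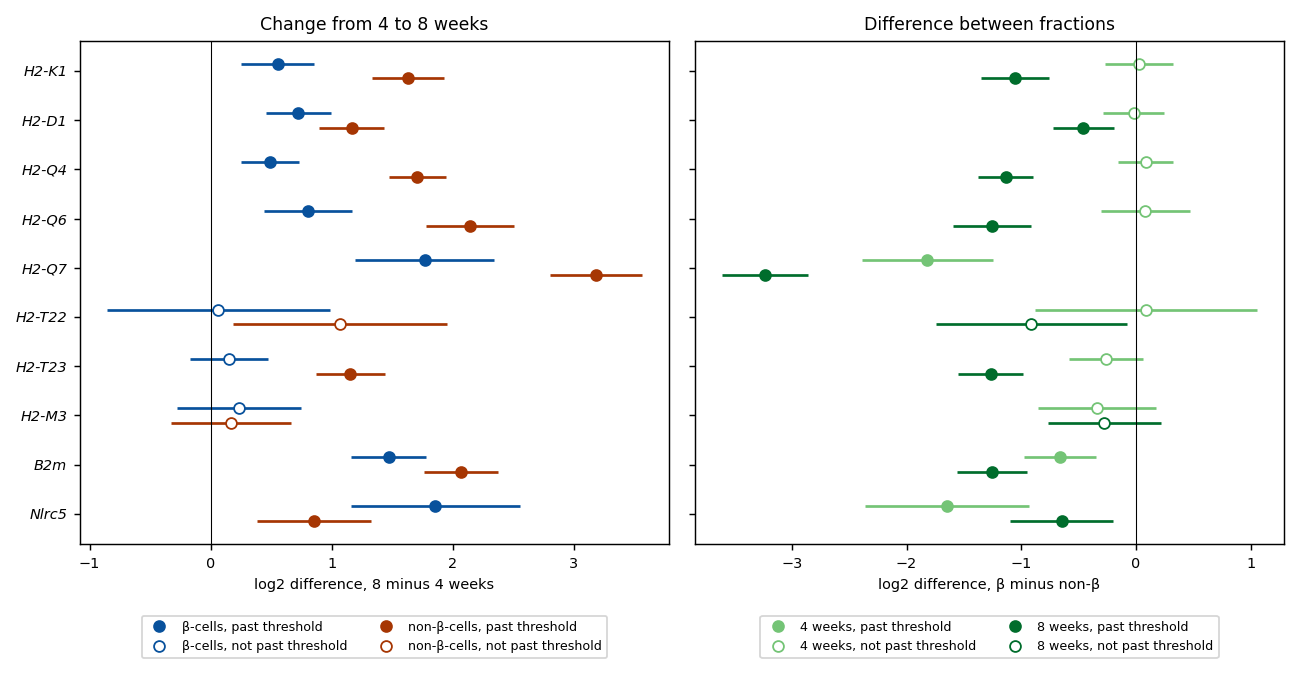
Log2 differences of the 10 genes with 95% confidence intervals: left, 8 against 4 weeks within β-cells (blue) and non-β-cells (brown); right, β-cells against non-β-cells at 4 (light green) and 8 weeks (dark green). Filled points passed an adjusted p of 0.05 by limma-voom. The H2-Q7 rise of 3.19 in non-β-cells is the largest age difference, and at 4 weeks most members sit near 0 between the fractions.

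The age changes of the fractions were compared directly through the interaction term of the model. For β-cells the rise was the smaller one in 5 of the 10 genes, all of them heavy chains: H2-K1, H2-Q4, H2-Q6, H2-Q7 and H2-T23. Over all genes, 3.33% were called in this direction. H2-Q4 had the smallest adjusted p (interaction -1.22, SE 0.156, adjusted p = 0.0006), and H2-Q6 (-1.34), H2-K1 (-1.08) and H2-T23 (-1.004) followed with adjusted p between 0.00541 and 0.0101.

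H2-Q7 differed by -1.42 (SE 0.318, adjusted p = 0.0211), a call that was lost without replicate 2 or 3 of the 4-week β-cells or replicate 2 of the 8-week β-cells (adjusted p = 0.0638, 0.0604 and 0.0575). The sum of the H2-Q genes was called (-1.24, SE 0.164, adjusted p = 0.000791). In β-cells H2-Q7 supplied 6.10 of the sum's 257 CPM at 4 weeks and 20.9 of its 358 CPM at 8 weeks. The sum's call therefore does not bear on whether that of H2-Q7 holds. B2m (-0.60, interval -1.03 to -0.16, adjusted p = 0.121) and H2-D1 (-0.44, interval -0.82 to -0.06, adjusted p = 0.192) did not pass. The B2m interaction passed with DESeq2 (adjusted p = 0.0394), with sample quality weights (0.0310) and without both 4-week samples numbered 3 (0.0295), and that of H2-D1 passed with sample quality weights (0.0143). Nlrc5 was the member with an interaction of clearly opposite sign, with a larger rise in β-cells (1.003, SE 0.391, interval 0.16 to 1.85), which did not pass the threshold either (adjusted p = 0.179).

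At 4 weeks, 3 of the 10 genes were lower in the β-cell fraction, namely H2-Q7, Nlrc5 and B2m, and none was higher. As many as 23.7% of all genes were called lower in β-cells at this age, so the count of members was near that of genes at large. In 26.7% of all genes tested every β-cell sample lay below every non-β sample. B2m was 1.58-fold lower (log2 difference -0.66, SE 0.145, adjusted p = 0.00244), with the highest β-cell sample at 92.6 CPM and the lowest non-β sample at 104 CPM. Nlrc5 was 3.14-fold lower (-1.65, SE 0.330, adjusted p = 0.00127), and its β-cell samples, at most 3.26 CPM, all lay below the 6.41 CPM of the lowest non-β sample.

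H2-Q7 was 3.53-fold lower (log2 difference -1.82, SE 0.266, adjusted p = 0.000118), yet with the H2-Q genes summed the fractions differed by only -0.08 (interval -0.34 to 0.17, adjusted p = 0.570). H2-Q7 shares 22.4% of its 31-base stretches with H2-Q10 and 15.5% with H2-Q5. Both partners were also lower in β-cells at this age (H2-Q10 -1.59, adjusted p = 0.00958, and H2-Q5 -2.86, adjusted p = 0.00176). The classical chains lay together at this age. H2-K1 differed by 0.03 (interval -0.27 to 0.32) and H2-D1 by -0.02 (interval -0.29 to 0.25), and over 17 heavy chain genes summed the levels were 1047 ± 162 CPM in the β-cell fraction against 1063 ± 99.6 CPM in the other (log2 difference -0.03, interval -0.27 to 0.22).

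At 8 weeks, 8 of the 10 genes were lower in β-cells, with a median log2 difference of -1.09 beside 0.01 over all genes, and 25.6% of all genes were called lower. H2-Q7 was 9.42-fold lower (log2 difference -3.24, SE 0.175, adjusted p = 1.29e-08), with 22.3 CPM in the highest β-cell sample and 153 CPM in the lowest non-β sample. H2-T23 was 2.41-fold lower (-1.27, SE 0.130), H2-Q6 2.39-fold (-1.26, SE 0.157), B2m 2.39-fold (-1.26, SE 0.141), H2-Q4 2.20-fold (-1.14, SE 0.110) and H2-K1 2.08-fold (-1.05, SE 0.137), all with adjusted p of at most 3.74e-05. In each of these genes all β-cell samples were below all non-β samples, as in 32.4% of all genes tested.

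H2-D1 differed less, 1.37-fold (log2 difference -0.46, SE 0.125, adjusted p = 0.0082), and Nlrc5 1.57-fold (-0.65, SE 0.208, adjusted p = 0.0203). The Nlrc5 call was lost without replicate 2 or 3 of the 8-week β-cells or replicate 1 or 2 of the 8-week non-β-cells (adjusted p = 0.0544, 0.0768, 0.0807 and 0.0567). H2-T22 (-0.91, interval -1.75 to -0.08, adjusted p = 0.0653) and H2-M3 (-0.28, interval -0.77 to 0.22, adjusted p = 0.335, and 0.0293 with sample quality weights) did not pass, whereas H2-T22 summed with H2-T10 did (-0.94, SE 0.182, adjusted p = 0.000879). Leaving out replicate 3 of the 4-week β-cells, or replicate 1 or 2 of the 8-week β-cells, also brought H2-T22 past the threshold (adjusted p = 0.0450, 0.0438 and 0.0303), while leaving out replicate 3 of the latter gave -0.29 (adjusted p = 0.364). The 17 heavy chains together stood at 1562 ± 41.04 CPM in the β-cell fraction and at 2780 ± 47.1 CPM in the non-β fraction (-0.83, SE 0.115, adjusted p = 6.03e-05).

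The makeup of the class I transcripts shifted along with their total. The ratio of B2m to the 8 heavy chains, both per kilobase, was 0.253 ± 0.023 in younger β-cells, 0.440 ± 0.00493 in older β-cells, 0.392 ± 0.00256 in younger non-β-cells and 0.625 ± 0.074 in older ones (SD, n = 3 each). The ages did not overlap in either fraction, and at each age the β-cell samples were below the non-β samples. These ratios are given as descriptions, without a test. Among the 8 member heavy chains, the share of H2-D1 was 67.2% ± 1.08 in β-cells at 8 weeks and 54.7% ± 4.19 in non-β-cells. That of H2-Q4, H2-Q6 and H2-Q7 together was 17.03% ± 0.979 and 26.8% ± 3.32. At 4 weeks these shares differed between the fractions by less than their spread, with 64.6% and 64.3% for H2-D1 and 17.4% and 17.3% for the 3 H2-Q genes.

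**Figure D4:**
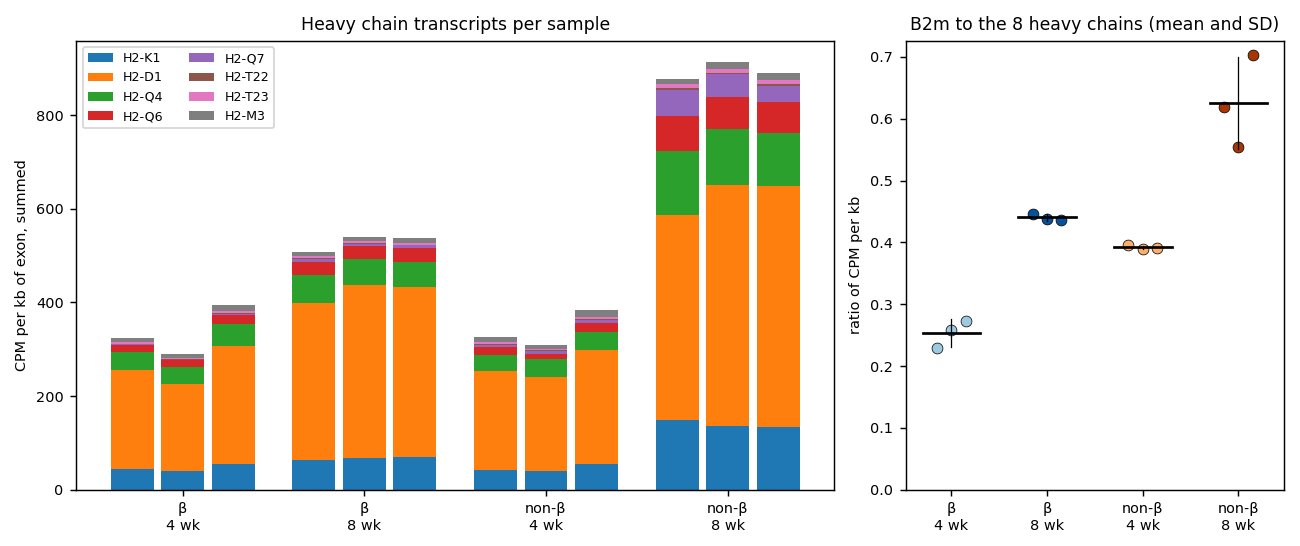
Left, CPM per kilobase of exon of the 8 heavy chain genes, stacked, in each of the 12 samples. Right, the ratio of B2m to their sum, with points for samples and bars for mean and SD (n = 3). H2-D1 is the largest block in every sample, the H2-Q blocks widen in non-β-cells at 8 weeks, and the B2m ratio runs from a mean of 0.253 in the lowest group to 0.625 in the highest.

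Other genes of the pathway were followed as lists. Of 14 genes for peptide supply and loading, 4 rose with age in β-cells (8.59% of all genes did) and 7 in non-β-cells (11.6%), with none lower in either. Their median log2 differences were 0.21 and 0.45. Psmb8, an immunoproteasome subunit, rose by 1.37 (SE 0.231) and by 1.54 (SE 0.232) in these fractions. Psmb9, another subunit, rose by 0.78 (SE 0.210) and by 1.84 (SE 0.260). Tap1, a chain of the transporter that feeds peptides to class I molecules, went from 14.4 ± 1.83 to 21.9 ± 1.34 CPM in β-cells (log2 difference 0.62, SE 0.142, adjusted p = 0.00982) and from 20.5 ± 2.55 to 38.9 ± 2.47 CPM in non-β-cells (0.93, SE 0.129, adjusted p = 0.000245). Tap1's changes did not differ between the fractions beyond the test's threshold (interaction -0.32, interval -0.73 to 0.10, adjusted p = 0.409).

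Of 19 tested transcription regulators of class I, 6 rose and 2 fell with age in β-cells, where 8.59% of all genes rose and 9.35% fell, and 7 rose in non-β-cells, where 11.6% of all genes did. The median log2 differences were 0.13 and 0.33, with single genes between -0.93 and 1.45 and between -0.14 and 5.75. Irf1, an interferon regulatory factor that binds class I promoters, was at 40.1 ± 0.502 and 72.2 ± 2.98 CPM in β-cells and at 74.5 ± 8.99 and 441 ± 17.9 CPM in non-β-cells. Its rise was 0.85 (SE 0.106, adjusted p = 0.000169) in β-cells and 2.57 (SE 0.0999, adjusted p = 2.41e-08) in non-β-cells, and the difference between the rises passed the test (-1.73, SE 0.146, adjusted p = 2.99e-05).

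Irf8, a factor of myeloid and B cells that interferon-γ also induces, had the largest change of the list, from a mean of 0.408 ± 0.545 CPM to 7.67 ± 2.32 CPM in non-β-cells (log2 difference 5.75, SE 1.11, adjusted p = 0.00276). In β-cells Irf8 averaged 0.339 and 0.503 CPM (adjusted p = 0.730), and its interaction did not pass (-5.09, SE 1.58, adjusted p = 0.0880). Irf7, a factor of the type I interferon response, rose by 1.45 (SE 0.353) in β-cells and by 1.63 (SE 0.232) in the other fraction. Rela, an NF-κB subunit, fell by 0.93 (SE 0.130) in β-cells and rose by 0.67 (SE 0.128) in non-β-cells (interaction -1.60, adjusted p = 0.000248). Rfx5, a subunit of the RFX complex that NLRC5 works with, did not pass the test in β-cells (0.33, SE 0.187, adjusted p = 0.250) and rose in non-β-cells (0.79, SE 0.180, adjusted p = 0.00845). The difference between the Rfx5 changes did not pass (-0.45, adjusted p = 0.380).

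Of 11 tested interferon receptor and signalling genes, 2 rose with age in the β-cell fraction (8.59% of all genes) and 4 in the other (11.6%), with medians of -0.01 and 0.45. Socs3, a feedback inhibitor of cytokine signalling, rose by 1.52 (SE 0.147) in β-cells and by 0.60 (SE 0.138) in non-β-cells, a difference that passed the test in the direction of β-cells (0.91, adjusted p = 0.0194). Usp18, an interferon-induced inhibitor of the type I receptor, rose by 1.003 (SE 0.210) in β-cells. In non-β-cells the Usp18 difference of 0.45 (SE 0.219, adjusted p = 0.196) did not pass, and neither did the difference between the fractions (0.55, adjusted p = 0.361). The interferon genes Ifng, Ifnb1 and Ifna4 had 0 counts in all 12 samples, which allows up to 3 counts per library.

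Among the other class I and class I-like heavy chains, 12 of the 27 in the table could be tested, of which 2 rose with age in β-cells (8.59% of all genes) and 8 did so in the other fraction (11.6%), with medians of 0.39 and 1.28. H2-Q5 rose in both, by 2.38 (SE 0.609) and 2.27 (SE 0.262), from mean levels of 1.57 and 11.7 CPM. Mr1, which presents vitamin B metabolites to mucosal-associated invariant T cells, was the other to rise in β-cells (1.02, SE 0.162, adjusted p = 0.000988). H2-Bl, a heavy chain gene of the T region, rose by 2.34 (SE 0.536) and H2-Q10 by 1.93 (SE 0.288) in non-β-cells. H2-K2, a K-region copy, had the only called interaction of this list (-1.81, SE 0.203, adjusted p = 0.000231), with means of 54.7 and 41.1 CPM in younger and older β-cells and of 46.1 and 123 CPM in the other fraction.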

How the data were processed

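RNA-seq was available for 12 samples, 3 in each of 4 groups, with groups taken from the sample titles. According to the study's methods, strand-specific 100-base reads were trimmed with fastp and assigned to the mouse transcriptome with kallisto, and the authors deposited estimated counts per gene (Ensembl 98, GRCm38), summed from transcripts. Of the values, 14.0% to 19.3% per sample were not whole, and totals were 13755106 to 27040652 counts, which limits precision for the members of low count. kallisto divides reads among near-identical transcripts, whether its counting used strand is not given in the sources used here, and antisense genes overlap H2-Q4, H2-T22 and H2-T23, while Patl2 overlaps B2m on the other strand. Gene identifiers were paired with symbols for 51916 of 52962 genes.

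Genes with more than 1 CPM in at least 3 samples were kept, counts were TMM-scaled (edgeR 4.0.16) and 4 group means were fitted with limma-voom (limma 3.58.1, R 4.3.3), as the study's methods do, with Benjamini-Hochberg adjustment and a threshold of 0.05. Levels per kilobase used the exon union of the annotation. edgeR's quasi-likelihood test and DESeq2 1.42.0 on rounded counts, and the other alternatives, were run as checks, and the code was tested on simulated data. All 10 members were named whatever their values, with up to 3 genes per pathway list by size of change, besides Tap1, Irf1 and Rfx5. Some listed genes are not reported here. The members and lists were chosen with earlier results of these data known. The study describes pools of mice for each sample, which the labels do not state, so p-values measure the spread between these samples. Replicates of a group differed by more than sampling noise in every pair.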

Additional observations from a re-analysis of the deposited data

Results flagged for a closer look

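By the interaction term of the limma-voom model, 5 heavy chain genes changed differently with age in the sorted fractions. The β-cell change minus the non-β-cell change, on the log2 scale, was -1.08 for H2-K1 (adjusted p = 0.00608), -1.22 for H2-Q4 (0.0006), -1.34 for H2-Q6 (0.00541), -1.42 for H2-Q7 (0.0211) and -1.004 for H2-T23 (0.0101). H2-K1, H2-Q4, H2-Q6 and H2-Q7 rose in both fractions, and H2-T23 passed the test in non-β-cells. The endothelial and mesenchymal marker genes also rose in non-β-cells, and their part in these values was not tested.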

How the results depend on the processing

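Of 1200 values of single members recomputed under the alternatives, 1137 kept their direction and side of the threshold, 19 lost a call, 21 gained a call and 23 changed sign, and for none of these was the cause tested. The changes of sign were all in differences past no threshold in either fit. In the comparison of the fractions at 4 weeks, they gave 0.00518 for H2-D1 without a filter on low counts, -0.0903 for H2-Q6 and -0.19 for H2-T22 with sample quality weights, -0.0845 for H2-Q4 and H2-Q6 and -0.17 for H2-T22 with related genes summed (which gives H2-Q4, H2-Q6 and H2-Q7 a common value by construction), and -0.27 for H2-T22 without both 4-week samples numbered 3. Leaving out 1 library at a time moved that comparison from -0.11 to 0.16 for H2-K1, from -0.13 to 0.0863 for H2-D1, from -0.013 to 0.15 for H2-Q4, from -0.10 to 0.22 for H2-Q6 and from -0.22 to 0.41 for H2-T22. It moved the age difference of H2-T22 in β-cells from -0.29 to 0.64, that of H2-M3 in non-β-cells from -0.0539 to 0.40 and the H2-M3 interaction from -0.16 to 0.30.

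Counts of called members ranged, without 1 library, from 5 to 7 for age in β-cells, 7 to 9 for age in non-β-cells, 3 for the fractions at 4 weeks, 7 to 9 at 8 weeks and 4 to 5 for the interaction. With related genes summed, 3 interactions were called, since the H2-Q genes then count as 1 feature. With all heavy chains as 1 feature beside B2m and Nlrc5, the counts were 3 and 3 for age, 3 for the fractions at 8 weeks and 1 for the interaction. A required 2-fold change left 3 members for age in β-cells. In a fit with a replicate block, 8 interactions were called, those of B2m (adjusted p = 0.00564), H2-D1 (0.0097) and Nlrc5 (0.0481) added, as was H2-M3 between the fractions at 4 weeks (0.0371). With sample quality weights H2-M3 was called lower in β-cells at 4 (0.0293) and 8 weeks (0.0293) and higher with age in β-cells (0.0398). With group means removed, β-cell and non-β samples sharing both age and number all correlated positively. The values were 0.0797 to 0.306 at 4 weeks and 0.00797 to 0.0487 at 8 weeks. Samples of equal number but different age, which come from different mice, gave -0.00634 to 0.124. Within an age, not every sample correlated best with its own number. At 4 weeks β-cell replicate 1 reached 0.0967 with non-β replicate 2, and at 8 weeks β-cell replicate 3 reached 0.0110 with non-β replicate 1. The numbers are therefore not shown to pair the samples. Removing islet hormone and mitochondrial genes, an alternative chosen after seeing the data, changed no member's call.

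Low counts limit H2-T22, H2-T23, H2-M3 and Nlrc5, and also H2-Q7 in 4-week β-cells (107 to 155 estimated counts). Resemblance between copies limits single H2-Q and H2-T genes. NOD alleles differ from the reference, so levels of H2-K1 and H2-D1 are not strictly comparable with each other, and the alleles were the same in all groups. The fractions are sorted populations whose other cell types differ with age, and the ages come from different mice.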

Other observations

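Over the 12 samples, the mean of the members' standardised log2 levels was followed most closely, among 10162 well expressed genes, by Icam1 (Pearson's r = 0.981), an adhesion molecule that binds leukocyte integrins, then by F11r (0.976), a tight junction protein, Elf3 (0.9751), an epithelial transcription factor, complement component C3 (0.972) and the chemokine Cxcl1 (0.972). Trp53i11, Slc25a25, Plat, Ahnak and Odc1 came next, down to 0.965. For Nlrc5 alone the closest were Stx16 (0.983), Adam22 (0.977) and Cgn (0.973). The samples share 4 groups, so these values describe the order of groups and have no test.

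Of the members themselves, B2m was closest to the mean of the other 9 (r = 0.976), followed by H2-K1 (0.966) and H2-Q4 (0.955). Nlrc5 (0.711), H2-T22 (0.643) and H2-M3 (0.557) were the farthest. For Nlrc5, B2m and H2-D1 the means of the older groups ranked above the younger ones and, within an age, the non-β fraction above β-cells. For Nlrc5 the middle groups overlapped, and for H2-D1 the 4-week groups did.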
